A study of Mus musculus with 32 samples.

Results

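The genotype by LPS interaction at 6 h is the difference between 2 responses to lipopolysaccharide (LPS, the bacterial endotoxin): the response of E2f1 knockout (KO) livers minus the response of wild-type (WT) livers. It was taken from 20 of the 32 arrays of the series, chosen by their labels. These were 4 KO livers 6 h after systemic LPS, 6 KO livers after saline, 4 WT livers 6 h after LPS and 6 WT livers after saline. KO mice carried E2F1-/- on a background labelled B6;129E2F1-/-, and WT mice carried E2F1+/+ on one labelled B6x126 F2. The saline livers of both genotypes are labelled 20 h and the LPS livers 6 h, so time after injection goes with treatment and the 2 cannot be told apart. The labels give no LPS dose, sex or age, and do not say that the 2 genotypes were littermates. The Y-linked genes Ddx3y and Eif2s3y read at least 0.589 and 1.63 on the log2 scale on each of the 20 arrays. Xist was not among the genes tested. The tissue is labelled liver, whereas the extraction protocol names lung. Albumin (Alb) read 9.54 or more on the log2 scale on each of the 20 arrays, and the mean of the measured lung epithelial markers stayed at -0.444 or less. Probes for surfactant genes Sftpb and Sftpc were not among the genes tested. Each array was hybridised with 1 RNA sample in 1 colour. Nothing in the labels ties a sample to a separate animal, so p-values measure the spread between these samples.

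LPS is sensed by Toll-like receptor 4 on Kupffer and endothelial cells of the liver. NF-κB and interferon signalling then raise cytokines and chemokines, and cytokines such as interleukin 6 make hepatocytes secrete acute phase proteins. E2F1 is a transcription factor that pairs with a DP protein, is held in check by the retinoblastoma protein, and drives genes of DNA replication as well as several genes of apoptosis. An interaction above 0 means that the KO response lay above the WT response, whether because a gene rose more or because it fell less. All values below are log2 levels relative to the 75th percentile of the same array, or differences of them, so 1 unit is a 2-fold change. A gene was called where limma's adjusted p for the interaction was under 0.05.

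A pair of KO arrays scored opposite to its labels on the LPS response. A response score placed each array on the line between the WT saline mean, at 0, and the WT LPS mean, at 1, over 5396 genes called in the WT response. KO LPS replicate 1 scored 0.126, whereas the other KO LPS arrays scored 0.897 to 0.976. KO saline replicate 1 scored 0.885, whereas the other KO saline arrays scored -0.00519 to 0.0571. WT LPS arrays scored 0.962 to 1.08 and WT saline arrays -0.0276 to 0.0848. KO LPS replicate 1 correlated at 0.918 with the other arrays of its own group and at 0.971 with KO saline, and KO saline replicate 1 at 0.899 with its own group and at 0.968 with KO LPS. The 2 arrays lay at neighbouring positions of 1 slide. In KO LPS replicate 1, single genes did not all follow the score. Saa1 read 9.55 in KO LPS replicate 1, near the other KO LPS arrays (9.78, 10.6 and 10.8) and above the other KO saline arrays (4.87 to 8.33), as its own label would place it. Reg3b, an antimicrobial lectin, read 3.68 in KO LPS replicate 1, against 2.78, 2.21 and 2.12 in the other KO LPS arrays and -7.80 to -5.69 in the other KO saline arrays. KO saline replicate 1 read 11.23 in Saa1 and 5.475 in Reg3b, above every other array in both genes, opposite to its label. Whether the labels were exchanged is not settled by the files, so both arrays keep their labels and the interaction is given with all arrays and without this pair.

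**Figure D1:**
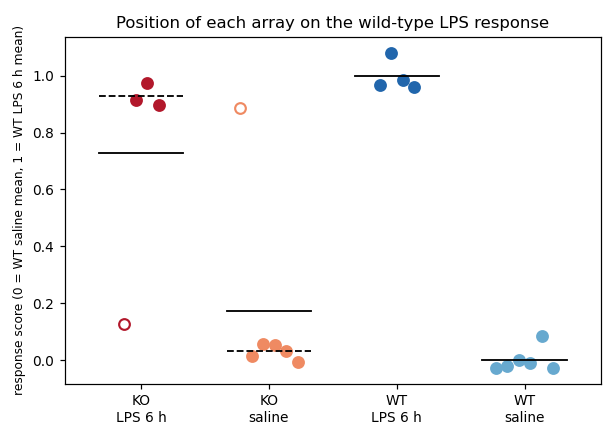
Response score of each array (y axis, 0 = WT saline mean, 1 = WT LPS 6 h mean) by group. Points are arrays, open points are the pair (replicate 1 of each KO group), solid lines are group means and dashed lines KO means without the pair. KO LPS replicate 1 (0.126) lies near the saline arrays and KO saline replicate 1 (0.885) near the LPS arrays.

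The targeted gene did not mark the genotype on these arrays. E2f1 read -2.38 (replicate 1), -2.17, -1.65 and -3.01 in KO LPS livers. It ran from -4.55 over a median of -3.10 to -2.40 in KO saline livers. It read -4.01, -3.77, -4.28 and -3.27 in WT LPS livers and ran from -5.05 over -3.37 to -2.30 in WT saline livers. The KO LPS arrays lay above the WT LPS arrays, and the saline groups overlapped. The interaction of E2f1 was 1.41 with all arrays (adjusted p = 0.68, limma) and 1.60 without the pair (adjusted p = 0.658), and a second probe gave 1.44 and 1.89. The labels do not say which part of the gene was deleted, so this probe (chr2:154386004-154386063, mm9) checks nothing about the knockout.

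With all 20 arrays, 24 of 19204 genes were called in the interaction (0.125%), 11 higher (0.0573%) and 13 lower (0.0677%) in the KO response. Without the pair, 29 genes were called (0.151%), 17 higher (0.0885%) and 12 lower (0.0625%). The fits shared 13 genes, which is 54.2% of the all-array calls and 44.8% of the calls without the pair, and all 13 had the same direction in both. At an unadjusted p under 0.05 stood 1695 genes (8.83%) with all arrays and 1769 (9.21%) without the pair. Both fits took the spread from the whole series, 32 arrays, or 30 without the pair. A fit of only the arrays of these 4 groups called 34 genes (22 higher, 12 lower), and 162 without the pair (89 higher, 73 lower). The count of 24 was 8 without WT LPS replicate 4 and 8 without KO LPS replicate 1. Without the pair, dropping a further array moved the count of 29 between 4 (without KO LPS replicate 2 or replicate 4) and 60 (without WT saline replicate 6). It was also 6 without KO saline replicate 4, 11 without WT saline replicate 2 or WT LPS replicate 1, 12 without WT LPS replicate 4, 15 without WT saline replicate 5, KO saline replicate 3 or KO LPS replicate 3, and 50 without WT LPS replicate 2. Scan days 1 and 2 each held all 4 groups and neither array of the pair, but only 1 KO LPS and 1 WT LPS array on day 1 and 1 WT LPS array on day 2, so these single arrays are assumed to vary like the other groups. Within these days limma called 0 genes, with 1043 and 1019 genes at an unadjusted p under 0.05. Groups also shared slides. With slide as a fixed block, 4 of the 24 genes (Rab40c, Tob1, Tanc1 and Fnbp4) and 5 of the 29 (Ltbp1, Sesn2, Svopl, Ppnr and C330011K17Rik) kept their call.

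The size of the separate responses depended on the pair. Limma called 502 genes (2.61%) in the KO response with all arrays and 5600 (29.2%) without the pair, and 5471 (28.5%) and 6173 (32.1%) in the WT response. In the KO response 304 genes rose (1.58%) and 198 fell (1.03%) with all arrays, and 2472 rose (12.9%) and 3128 fell (16.3%) without the pair. In the WT response 2397 rose (12.5%) and 3074 fell (16%) with all arrays, and 2725 rose (14.2%) and 3448 fell (18%) without the pair, where only the shared estimate of the spread differed. Over the 6173 genes called in WT without the pair, the least-squares slope of the KO response on the WT response was 0.56 with all arrays and 0.909 without the pair. The KO and WT responses share no array, but the genes were chosen by the same WT values that the slope is taken on. Such a choice can pull the slope below 1 where the responses are equal, so a slope under 1 does not by itself show a weaker KO response. The sign of the response was the same in both genotypes for 94.2% and 94.5% of those genes. Between genotypes, 242 genes (1.26%) were called at 6 h of LPS with all arrays and 257 (1.34%) without the pair, and 64 (0.333%) and 68 (0.354%) on saline. After LPS, KO was higher in 169 (0.88%) and lower in 73 (0.38%) with all arrays, and higher in 173 (0.901%) and lower in 84 (0.437%) without the pair. On saline, KO was higher in 26 (0.135%) and lower in 38 (0.198%), and without the pair higher in 32 (0.167%) and lower in 36 (0.187%).

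**Figure D2:**
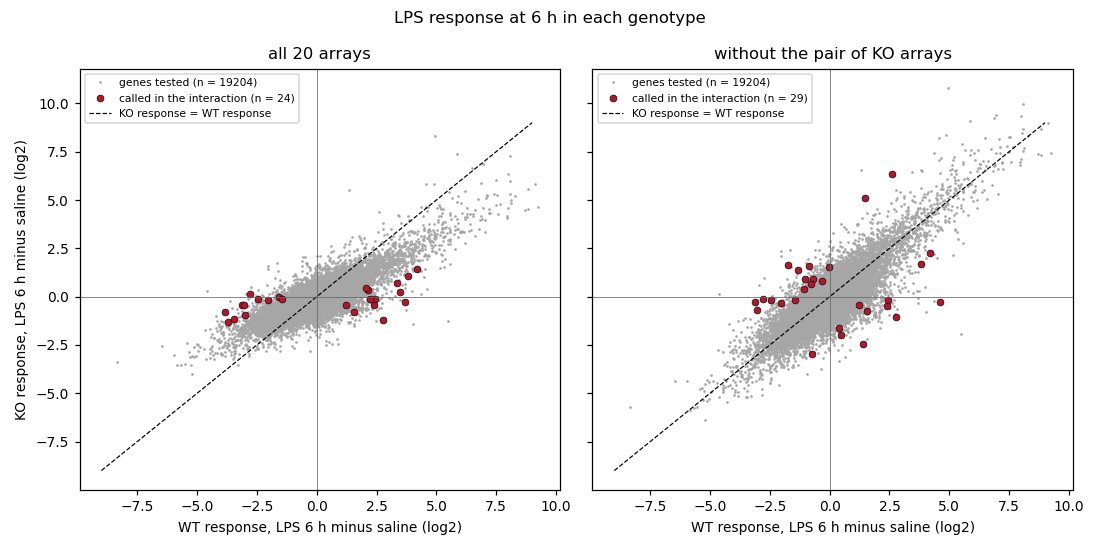
KO response (y axis) against WT response (x axis), both LPS 6 h minus saline in log2 units, for the 19204 genes, with all arrays on the left and without the pair on the right. Red points are the 24 and 29 genes called in the interaction, and the dashed line marks equal responses. With all arrays the cloud lies flatter than the dashed line (slope 0.56 over WT-called genes), and without the pair it lies near it (slope 0.909).

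For most genes the arrays left a wide interval around the interaction. The median standard error of the interaction was 0.541 with all arrays and 0.526 without the pair, and the median 95% interval reached 1.11 and 1.08 to either side. The interval lay wholly within a 2-fold difference for 3485 genes (18.1%) with all arrays and for 3423 (17.8%) without the pair. Among genes called in the WT response it did so for 325 of 5471 (5.94%) and for 1013 of 6173 (16.4%). It lay wholly beyond a 2-fold difference for 73 and 97 genes.

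The leading genes with a positive interaction in both fits fell in WT livers and did not pass the test in KO livers. They were Tbc1d2, a Rab7 GTPase-activating protein, Rab40c, a Rab GTPase with a SOCS box, Gtlf3b (RefSeq Natd1), Chst12, a chondroitin sulfotransferase, Dedd2, which carries a death effector domain, and the clone 6430548M08Rik. Among the negative ones called in both fits were Dll1, a Notch ligand, Zufsp (RefSeq Zup1), a deubiquitinase, and Ltbp1, which binds latent TGF-β. The promoters of 3 of them are shown because they stand for genes that fell in WT livers (Tbc1d2 and Rab40c) and for genes that rose more in WT livers (Zufsp), and because each has 1 promoter in the RefSeq table. Each sequence is the 250 bases before the start of the gene on its own strand, from RefSeq, build GRCm38.p6; they lie at chr4:46650200-46650449 (minus strand), chr17:25919715-25919964 (minus strand) and chr10:33951260-33951509 (minus strand). Capitals would mark a match to an E2F or NF-κB motif, and there was none.
Tbc1d2: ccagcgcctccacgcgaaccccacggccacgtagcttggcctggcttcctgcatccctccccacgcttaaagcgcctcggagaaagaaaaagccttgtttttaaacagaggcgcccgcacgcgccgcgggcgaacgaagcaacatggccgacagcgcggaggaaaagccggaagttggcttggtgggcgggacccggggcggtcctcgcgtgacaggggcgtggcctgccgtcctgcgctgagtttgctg
Rab40c: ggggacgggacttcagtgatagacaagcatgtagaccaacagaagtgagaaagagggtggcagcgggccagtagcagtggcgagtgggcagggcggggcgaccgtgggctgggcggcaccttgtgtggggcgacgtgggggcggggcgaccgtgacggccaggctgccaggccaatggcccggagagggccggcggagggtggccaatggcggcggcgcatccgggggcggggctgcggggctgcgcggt
Zufsp: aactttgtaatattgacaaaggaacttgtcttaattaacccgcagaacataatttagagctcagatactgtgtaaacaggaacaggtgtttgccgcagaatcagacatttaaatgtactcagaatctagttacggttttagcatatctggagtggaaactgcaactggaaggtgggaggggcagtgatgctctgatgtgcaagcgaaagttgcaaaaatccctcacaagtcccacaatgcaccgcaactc

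The promoter sequences were searched on both strands for the E2F letters TTTCCCGC, TTTGGCGC and TTTCGCGC and for 2 forms of the NF-κB decamer. Of the 40 genes called in either fit, 31 matched a RefSeq promoter, and 1 of them (Fam60a, RefSeq Sinhcaf) held an E2F match in any of its promoters (3.23%), against 1.78% of the 27025 genes in the table counted the same way and 1.53% of its 32851 promoters. None of the 31 held an NF-κB match, against 0.263% of genes and 0.225% of promoters. The GC content was 66% for Tbc1d2, 72.4% for Rab40c and 42.4% for Zufsp. A missing match says only that these letters are not in this window.

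In Tbc1d2 (probe at chr4:46617336-46617395, mm9), KO LPS livers read 0.17 (replicate 1), -0.47, -0.36 and 0.21 and KO saline livers ran from -0.63 over a median of 0.16 to 0.36. WT LPS livers read -2.64, -2.15, -1.71 and -1.70 and WT saline livers ran from -0.50 over 0.52 to 0.95. Only the WT LPS arrays were low, and they overlapped none of the other 16. The interaction was 2.33 with a 95% interval of 1.53 to 3.12 (adjusted p = 0.00944, limma) and 2.26 without the pair (adjusted p = 0.0206). With slide as a fixed block it was 1.65 (adjusted p = 0.0905), and 1.54 without the pair (adjusted p = 0.14), so the call was lost. A second probe of Tbc1d2 gave an interaction of 0.13, and 0.31 without the pair, so the probes disagree.

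Rab40c showed the same arrangement with little spread (chr17:26019159-26019218, mm9). Its level was 2.27 (replicate 1), 1.91, 1.82 and 1.93 in KO LPS livers and 1.92 to 2.30 with a median of 2.10 in KO saline livers. It was 0.28, 0.69, 1.08 and 0.70 in WT LPS livers and 2.06 to 2.28 with a median of 2.15 in WT saline livers. The WT LPS arrays lay below all others. The interaction of Rab40c was 1.34 (95% interval 0.88 to 1.80, adjusted p = 0.00944, limma) and 1.28 without the pair (adjusted p = 0.0206), and a second probe gave 0.76 and 0.89. With slide as a fixed block it was 1.22 (adjusted p = 0.0485), and 1.16 without the pair (adjusted p = 0.0737).

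Gtlf3b (chr11:60716568-60716627, mm9) read 1.66 (replicate 1), 0.75, 0.89 and 0.85 in KO LPS livers and ran from 0.87 over 1.25 to 1.49 in KO saline livers. The WT LPS arrays read -0.99, -0.46, -0.08 and -0.39, below every other array, and WT saline livers ran from 1.09 over 1.69 to 1.80. Its interaction was 1.87 (adjusted p = 0.00944, limma) with all arrays and 1.71 (adjusted p = 0.0206) without the pair, and the call was lost with slide as a block (adjusted p = 0.0905 and 0.112). Chst12 (chr5:141001127-141001185, mm9) read -2.08 (replicate 1), -2.59, -3.50 and -3.27 in KO LPS livers, -2.73 to -1.92 in KO saline livers, -5.55, -5.79, -4.37 and -5.77 in WT LPS livers and -2.79 to -1.89 in WT saline livers. Its WT LPS arrays were again the lowest, and 3 of the 4 were not well above background, so the WT fall is measured against dim spots. The interaction was 2.64 (adjusted p = 0.00944, limma) and 2.37 without the pair (adjusted p = 0.029), and a second probe gave 2.19 and 1.71. With slide as a block its adjusted p was 0.124 and 0.196.

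Dedd2 differed from the genes above in that the genotypes also lay apart on saline. KO LPS livers read 4.97 (replicate 1), 3.44, 3.07 and 3.37 and KO saline livers ran from 2.77 over 3.56 to 4.39. WT LPS livers read 1.62, 1.75, 2.48 and 2.19 and WT saline livers ran from 4.48 over 4.75 to 5.09, above every KO saline array. The interaction of Dedd2 was 2.89 (adjusted p = 0.0231, limma) and 2.63 without the pair (adjusted p = 0.0356). Its 3 other probes gave 2.57 to 3.53, and 2.38 to 3.11 without the pair. With slide as a block the adjusted p of Dedd2 was 0.244 and 0.197. The difference on saline was -1.19 and was not called (adjusted p = 0.224). The clone 6430548M08Rik read -0.41 (replicate 1), -0.19, -0.64 and -0.86 in KO LPS livers, against -3.87, -3.44, -3.24 and -3.64 in WT LPS livers, with an interaction of 2.68 (adjusted p = 0.0231, limma) and 2.85 without the pair (adjusted p = 0.0206). Its other probes gave 0.37, 1.01 and 2.0 with all arrays, and with slide as a block its adjusted p was 0.124 and 0.0975 (limma).

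Dll1 (chr17:15504623-15504682, mm9) rose in WT livers by 3.82. It read -1.98 (replicate 1), -1.50, -0.71 and -0.52 in KO LPS livers and -2.75 over a median of -2.56 to -0.39 in KO saline livers, the highest being replicate 1. The WT LPS arrays read 0.90, 1.51, 0.99 and 0.93, above all other arrays, and WT saline livers ran from -3.52 over -2.73 to -2.13. The KO response was 1.04 (adjusted p = 0.0946, limma) with all arrays and 1.68 (adjusted p = 7.76e-05) without the pair, where it too was called as a rise. The interaction of Dll1 was -2.77 (adjusted p = 0.0205, limma) and -2.14 without the pair (adjusted p = 0.0206), and the call was lost with slide as a block (adjusted p = 0.178 and 0.122).

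Zufsp was higher after LPS in both genotypes, less so in KO livers. KO LPS livers read -1.15 (replicate 1), 0.88, 1.16 and 1.23 and KO saline livers ran from -1.68 over -0.90 to 0.51, the highest being replicate 1. WT LPS livers read 2.66, 3.27, 2.32 and 2.32, above all others, and WT saline livers ran from -2.21 over -1.56 to -1.01. The interaction was -2.77 (adjusted p = 0.0274, limma) and -1.93 without the pair (adjusted p = 0.0356). A second Zufsp probe gave -2.81 and -2.91, and with slide as a block the adjusted p was 0.312 and 0.163. Ltbp1 (chr17:75624653-75624712, mm9) was dimmer. It read -3.65 (replicate 1), -4.09, -4.80 and -4.92 in KO LPS livers, -4.73 to -2.88 in KO saline livers, -2.43, -3.51, -3.70 and -2.79 in WT LPS livers and -5.89 to -5.04 in WT saline livers. The KO LPS and WT LPS arrays of Ltbp1 overlapped only through KO LPS replicate 1. KO LPS replicates 2 to 4 lay below every WT LPS array, and the WT saline arrays were the lowest. Its interaction was -2.82 (adjusted p = 0.0231, limma) and -2.85 without the pair (adjusted p = 0.0253), but -0.08 and -0.0023 after normexp and quantile normalization. A second Ltbp1 probe gave -0.87 and -0.47. With slide as a block the adjusted p of Ltbp1 was 0.0855 and 0.0433.

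**Figure D3:**
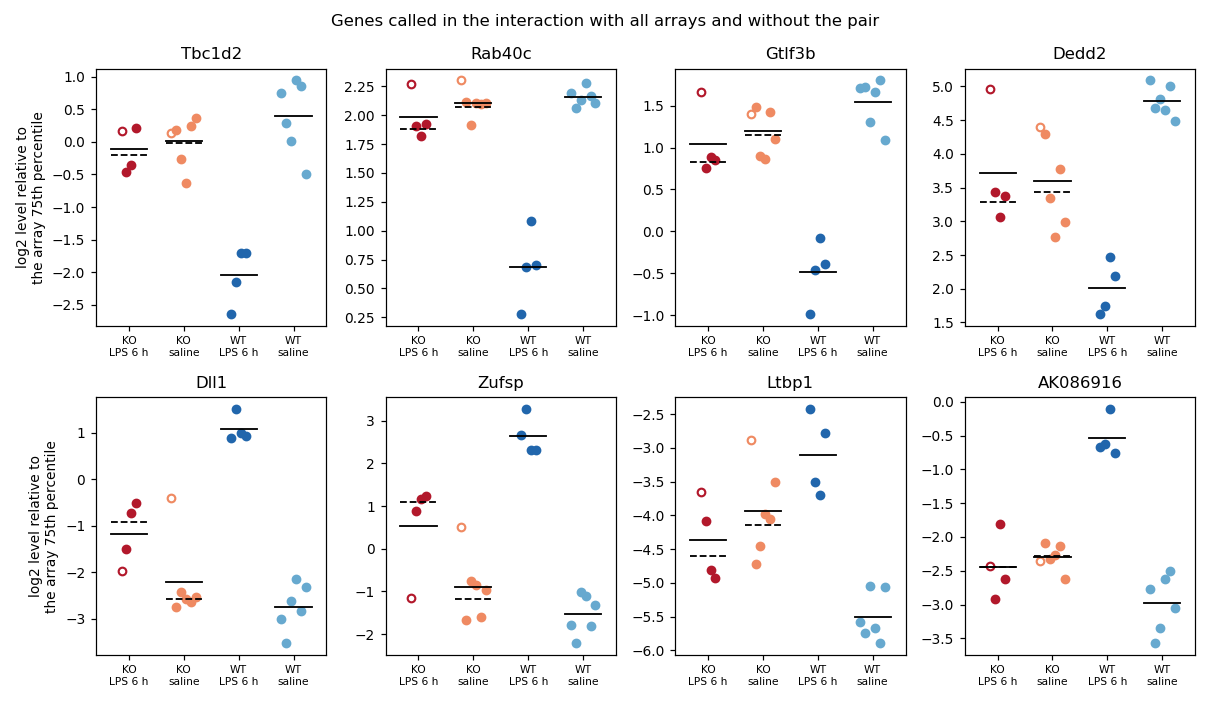
Log2 level relative to the array 75th percentile (y axis) in each array of the 4 groups for 8 genes called in the interaction in both fits. Open points are the pair, solid lines group means and dashed lines KO means without the pair. In Tbc1d2, Rab40c, Gtlf3b and Dedd2 the WT LPS arrays lie below all others, and in Dll1, Zufsp and the transcript AK086916 they lie above all others.

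The other 4 transcripts called in both fits have only accession or clone names, and all 4 were lower in the KO response. AK086916 read -2.43 (replicate 1), -2.91, -1.80 and -2.62 in KO LPS livers against -0.66, -0.62, -0.11 and -0.75 in WT LPS livers, with an interaction of -2.58 (adjusted p = 0.0151, limma) and -2.60 without the pair (adjusted p = 0.029). AK032904 had an interaction of -4.02 (adjusted p = 0.00944), but none of its KO LPS arrays was well above background, so WT LPS livers were at least 3.24-fold brighter than KO LPS livers. That bound sets the mean of the bright group against, per array, the higher of the spot's own signal and the dimmest signal well above background. DV075475 (-1.63) and NAP123224-1 (-2.36) were called too (adjusted p = 0.0231 and 0.0107, limma).

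Of the 24 calls with all arrays, 10 fell in WT livers and did not pass in KO, 12 rose in WT and did not pass in KO, and 2 (Tob1, which fell, and Zufsp, which rose) passed in both genotypes. In all 24 the KO response lay nearer 0 than the WT response, in the fit that holds the pair, and 11 of the 24 genes were no longer called without it. Tob1, an antiproliferative protein, read 1.45 (replicate 1), 0.02, -0.13 and -0.11 in KO LPS livers, against -2.05, -0.88, -2.67 and -2.27 in WT LPS livers. Bbc3, which encodes the pro-apoptotic PUMA, read 2.75 (replicate 1), 2.35, 0.57 and 0.82 in KO LPS livers, against -0.50, -0.80, 0.18 and -0.89 in WT LPS livers. Hic1, a transcriptional repressor, read 0.09 (replicate 1), -0.25, -1.45 and -2.35 in KO LPS livers, against -4.17, -3.99, -3.50 and -3.66 in WT LPS livers. In Tob1, Bbc3 and Hic1 each KO LPS array lay above each WT LPS array. The interactions were 2.38, 2.34 and 3.04 (adjusted p = 0.0231, 0.0231 and 0.0287, limma), and 1.87, 1.91 and 2.58 without the pair (adjusted p = 0.0573, 0.0624 and 0.0918).

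C2cd2l, a lipid transfer protein, and Ankzf1, which acts in ribosome quality control, were the other positive calls that were lost (2.07 and 1.59 with all arrays, adjusted p = 0.0231 and 0.0287 by limma; 1.72 and 1.57 without the pair, adjusted p = 0.067 and 0.0573). The negative calls that were lost were Zfp296, Apobec3, Tanc1, Fam60a, Fnbp4 and Adamts13. Zfp296, a zinc finger protein, had -2.62 (adjusted p = 0.0205) and -2.12 without the pair (adjusted p = 0.0516). Apobec3, which restricts retroviruses, had -3.23 (adjusted p = 0.0231) and -2.79 (adjusted p = 0.0615), and its second probe gave 0.26 and 0.77. Tanc1, Fam60a and Fnbp4 had -1.60, -1.78 and -2.33 (adjusted p = 0.0278, 0.0367 and 0.0396, limma), and -1.45, -1.45 and -2.28 without the pair (adjusted p = 0.0703, 0.0918 and 0.0609).

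Adamts13, which cleaves von Willebrand factor and is made by stellate cells in the liver, was split by genotype on saline. It read -2.45 (replicate 1), -2.62, -1.70 and -2.06 in KO LPS livers and -2.57 to -1.37 with a median of -2.0 in KO saline livers. The WT LPS arrays read -2.24, -6.36, -2.25 and -2.40, and WT saline livers ran from -7.94 over -7.16 to -5.79. None of the 6 WT saline arrays was well above background, and of the WT LPS arrays 3 were. KO saline livers were at least 7.69-fold brighter than WT saline livers (8.40-fold without the pair), and WT LPS livers at least 2.96-fold brighter than WT saline livers. The interaction was -3.97 (adjusted p = 0.0419, limma) and -4.01 without the pair (adjusted p = 0.0624), and both rest on a WT saline level that is only a bound. The call was lost on leaving out any of 16 of the 20 arrays in turn.

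Without the pair, 16 genes were called that were not called with all arrays. Of the 29 calls, 13 passed in WT only (7 fell and 6 rose), 4 passed in KO only (2 rose and 2 fell), and 12 passed in both genotypes. Of those 12, 6 rose in KO and fell in WT, 1 fell in KO and rose in WT, 4 rose in both and 1 fell in both. Sesn2, a stress-induced inhibitor of mTORC1, read 2.12 (replicate 1), 2.74, 3.37 and 2.79 in KO LPS livers and ran from 1.14 over 1.72 to 4.01 in KO saline livers, the highest being replicate 1. WT LPS livers read 0.42, 1.14, 0.41 and 1.06 and WT saline livers ran from 1.65 over 2.09 to 2.53. KO LPS arrays thus lay above WT LPS arrays without overlap. Without the pair Sesn2 rose by 1.38 in KO and fell by 1.34 in WT, an interaction of 2.72 (95% interval 1.77 to 3.67, adjusted p = 0.0206, limma), which held on leaving out each further array. With all arrays the interaction was 2.11 (adjusted p = 0.169, limma), and a second probe gave 1.34 and 1.4. Of the other calls without the pair, only C330011K17Rik held on leaving out each of the 18 further arrays in turn. The calls of Dda1, Def6 and Rsl1 were each lost on leaving out any of 15 of the 18.

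The other 5 genes that rose in KO and fell in WT without the pair were Nfe2, a transcription factor of red cell and platelet precursors, Sorl1, Def6, Rsl1 and Ubn1. Nfe2 read -1.53 (replicate 1), 0.56, 0.0018 and -0.45 in KO LPS livers, against -2.51, -2.45, -1.70 and -3.54 in WT LPS livers, with an interaction of 3.36 (adjusted p = 0.0305, limma). Sorl1, a sorting receptor, ran from -6.81 to -5.96 in KO saline livers and from -4.09 to -3.60 in WT saline livers; no KO saline array was well above background, and WT saline livers were at least 1.62-fold brighter. Its interaction was 2.47 (adjusted p = 0.0356). Def6, Rsl1 and Ubn1, a histone chaperone subunit, had 1.91, 1.62 and 1.43 (adjusted p = 0.0434, 0.0494 and 0.0356, limma). The other Ubn1 probes gave -0.20 and 1.17, and a second Def6 probe 0.41. For Rsl1, a KRAB zinc finger repressor of sex-biased liver genes, a second probe gave -0.86, the opposite sign. Ints6, a subunit of the Integrator complex, fell in WT and was not called in KO (1.48, adjusted p = 0.0356), and its second probe gave 0.44.

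Golga3 and Dda1 rose in KO livers alone without the pair. Golga3, a golgin, read -0.28 (replicate 1), 1.66, 2.08 and 1.96 in KO LPS livers and ran from -0.04 over 0.44 to 1.25 in KO saline livers, against 0.25, 0.18, 0.42 and 0.15 in WT LPS livers and -0.33 over 0.42 to 0.51 in WT saline livers. KO LPS replicates 2 to 4 were the 3 highest arrays. The interaction of Golga3 was 1.60 (adjusted p = 0.0253, limma), and 0.90 with all arrays (adjusted p = 0.573); its other probes gave 0.74 and 1.52. Dda1, a subunit of a CRL4 ubiquitin ligase, had 1.13 (adjusted p = 0.0356), while its other probes gave 0.14 and 0.39.

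Bcl9, a co-activator of β-catenin, fell in KO livers alone. It read -2.45 (replicate 1), -3.46, -3.06 and -3.72 in KO LPS livers and ran from -3.50 over -1.85 to -1.33 in KO saline livers, against -2.0, -1.92, -2.19 and -1.47 in WT LPS livers and -2.55 over -2.27 to -2.05 in WT saline livers. Its interaction without the pair was -2.03 (adjusted p = 0.0253, limma), and a second probe gave -0.25. AK035017 also fell in KO alone, with -2.47 (adjusted p = 0.0356). Ppnr fell in both, by 2.96 in KO and by 0.75 in WT, and read -1.07 (replicate 1), -3.98, -2.88 and -4.15 in KO LPS livers, against -2.40, -2.53, -1.61 and -2.15 in WT LPS livers (interaction -2.21, adjusted p = 0.0206). D0H4S114 (RefSeq Nrep) fell by 2.45 in KO and rose by 1.4 in WT (interaction -3.85, adjusted p = 0.0356), and its second probe gave -2.91.

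Chi3l3 (RefSeq Chil3), a chitinase-like protein secreted by myeloid cells, rose in both genotypes and more in KO livers. In bulk liver, more cells of a type and more RNA per cell cannot be told apart. Chi3l3 read 0.14 (replicate 1), 3.72, 3.74 and 3.73 in KO LPS livers and ran from -2.92 over -2.65 to 3.72 in KO saline livers, the highest being replicate 1. The WT LPS arrays read 1.06, 0.31, 1.42 and 0.13 and WT saline livers ran from -3.34 over -2.46 to 0.17. KO LPS replicates 2 to 4 lay above every WT LPS array. The interaction was 3.74 (adjusted p = 0.0356, limma) without the pair and 1.78 with it (adjusted p = 0.749). Without the pair, the call was lost on leaving out any of 12 of the 18 arrays in turn. Svopl, an orphan transporter, read -6.66 (replicate 1), -2.33, -1.35 and -1.21 in KO LPS livers, against -5.39, -4.49, -5.65 and -5.33 in WT LPS livers, none of which was well above background. Without the pair KO LPS livers were at least 7.31-fold brighter than WT LPS livers and at least 8.09-fold brighter than KO saline livers (interaction 3.62, adjusted p = 0.0206), and a second probe gave 2.50.

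C330011K17Rik (RefSeq Zfp874a), a zinc finger gene at chr13:67541780-67541839 (mm9), had the smallest adjusted p without the pair. It read 0.54 (replicate 1), 1.08, 0.35 and 0.51 in KO LPS livers and ran from -3.28 over 0.81 to 1.15 in KO saline livers, the lowest being replicate 1. WT LPS livers read -2.74, 0.32, 0.56 and -0.02 and WT saline livers ran from -6.43 over -4.67 to -4.37. The WT saline arrays lay below all others. KO was above WT on saline by 5.97 without the pair (adjusted p = 1.36e-09, limma) and by 5.27 with all arrays (adjusted p = 3.33e-06), and WT rose by 4.59. The interaction was -4.85 (95% interval -6.27 to -3.43, adjusted p = 0.0029) without the pair and -4.18 (adjusted p = 0.0505) with all arrays. In this gene and in Adamts13 the KO saline level was near the WT LPS level, and in both 1 WT LPS array was far below the other 3.

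**Figure D4:**
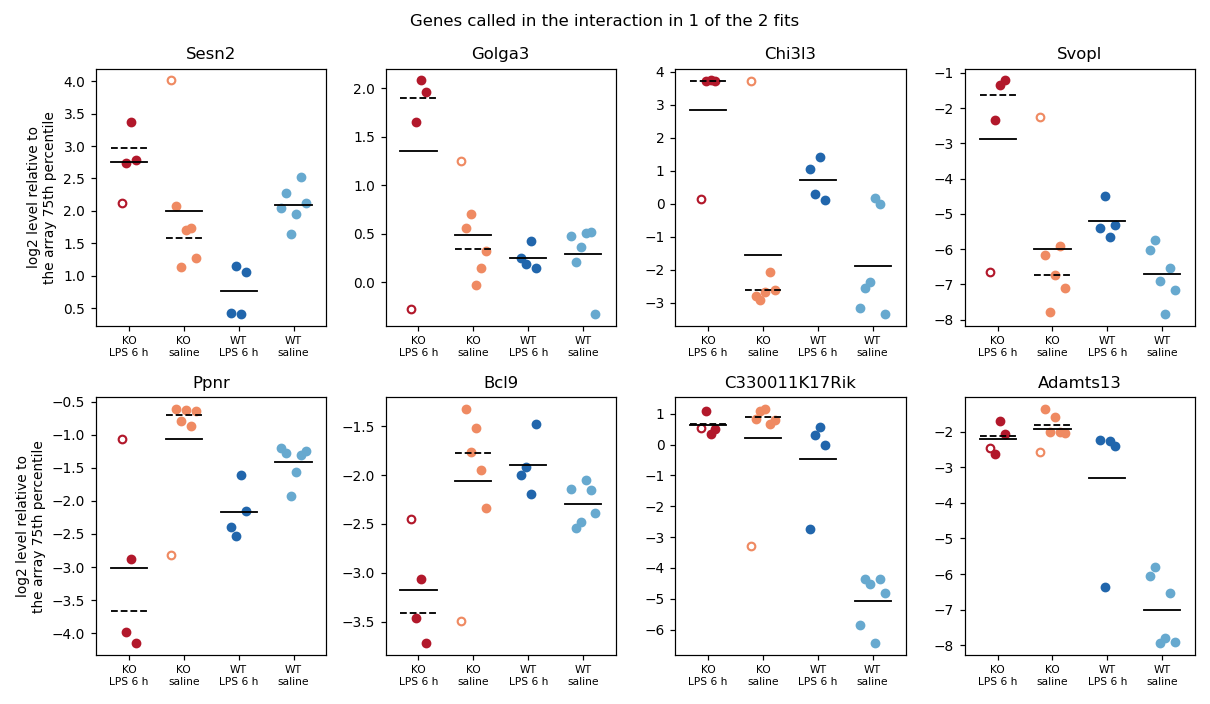
Log2 level relative to the array 75th percentile (y axis) in each array of the 4 groups for 7 genes called only without the pair and for Adamts13, called only with all arrays. Open points are the pair, solid lines group means and dashed lines KO means without the pair. In Golga3, Chi3l3 and Svopl the filled KO LPS points lie above all WT arrays, and in C330011K17Rik the WT saline arrays lie lowest, while in Adamts13 they share the low range with 1 WT LPS array.

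Several genes fell just short. Paip2b and Pbx2 had 1.24 and 1.70 with all arrays (adjusted p = 0.0505 and 0.0514, limma), and Slc19a3, Rbm43 and Casp2 -2.15, -2.17 and -1.81 (adjusted p = 0.0805, 0.107 and 0.143). Second probes of Paip2b and Pbx2 gave 0.97 and 0.41 with all arrays. Without the pair, Id1, an inhibitor of basic helix-loop-helix factors, had -2.82 (adjusted p = 0.0516) and Zfp39 -2.16 (adjusted p = 0.067). The second Id1 probe gave -2.68.

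The main mediators of the LPS response were not called, and their sign depended on the pair. Tnf, which encodes tumour necrosis factor, read -5.16 (replicate 1), 0.12, 0.63 and 0.73 in KO LPS livers and ran from -6.03 over -5.13 to 0.73 in KO saline livers, the highest being replicate 1. The WT LPS arrays read -1.1, 1.4, 0.40 and -0.81 and WT saline livers ran from -5.81 over -5.58 to -5.02. Apart from the pair, LPS and saline arrays did not overlap in either genotype. The interaction of Tnf was -2.15 (adjusted p = 0.681, limma) and 0.25 without the pair, with a 95% interval of -0.96 to 1.47 (adjusted p = 0.93). Il1b, the gene of interleukin 1β, had -2.26 (adjusted p = 0.646) and 0.05 without the pair, with an interval of -1.11 to 1.2. Il6, the inducer of the acute phase, had -0.83 and 1.27 without the pair, with an interval of -0.28 to 2.82. Cxcl1, a neutrophil chemokine, had -0.96 and 1.68 without the pair, with an interval of -1.01 to 4.36.

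The liver's own products gave wide or small differences. Saa1, a major acute phase protein, had an interaction of 0.11 and 1.1 without the pair, with an interval of -0.72 to 2.93. Alb had 0.02 and 0.28, with an interval of -0.44 to 1.00. Vegfa, an angiogenic growth factor, had -0.11 and 0.39, with an interval of -0.44 to 1.22. Cyp7a1, which sets the pace of bile acid production from cholesterol, had 4.96 (adjusted p = 0.413, limma) and 2.63 without the pair (adjusted p = 0.694), with an interval of -0.96 to 6.22. Its KO LPS arrays read 2.98 (replicate 1), -7.29, -3.54 and -1.22, against -6.34, -6.65, -3.29 and -6.29 in WT LPS livers, of which only 1 was well above background. The second Cyp7a1 probe gave 0.84 and -0.36.

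Medians of gene lists by role differed with and without the pair. Over all 19204 genes the median interaction was -0.0043, and -0.02 without the pair. Positive interactions made up 49.7% of all genes, and 48.9% without the pair. The medians of 6 lists of LPS-induced genes, below that of all genes with all arrays, lay nearer to it without the pair. The median over 12 interferon-inducible GTPases was -2.27, and -0.35 without the pair, and over 36 interferon-stimulated genes it was -1.09 and 0.47. Over 13 CXC chemokines it was -1.39 and 0.29, over 16 CC chemokines -1.30 and -0.05, over 20 cytokines -1.13 and 0.31, and over 36 genes of the Toll-like receptor and NF-κB pathway -0.81 and 0.18. No member of these 6 lists was called in either fit. Other lists that rose after LPS moved farther from the median of all genes without the pair. The median over 21 immediate early genes was -0.33 with all arrays and 0.52 without the pair. It was -0.19 and 0.71 over acute phase genes, and -0.02 and 1.18 over neutrophil markers. Named by brightness, Cxcl9 had -2.93 and -0.67, Ccl5 -2.63 and -0.41, Iigp1 -0.57 and 0.43, and Nfkbia, the NF-κB inhibitor, -0.43 and 0.94.

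**Figure D5:**
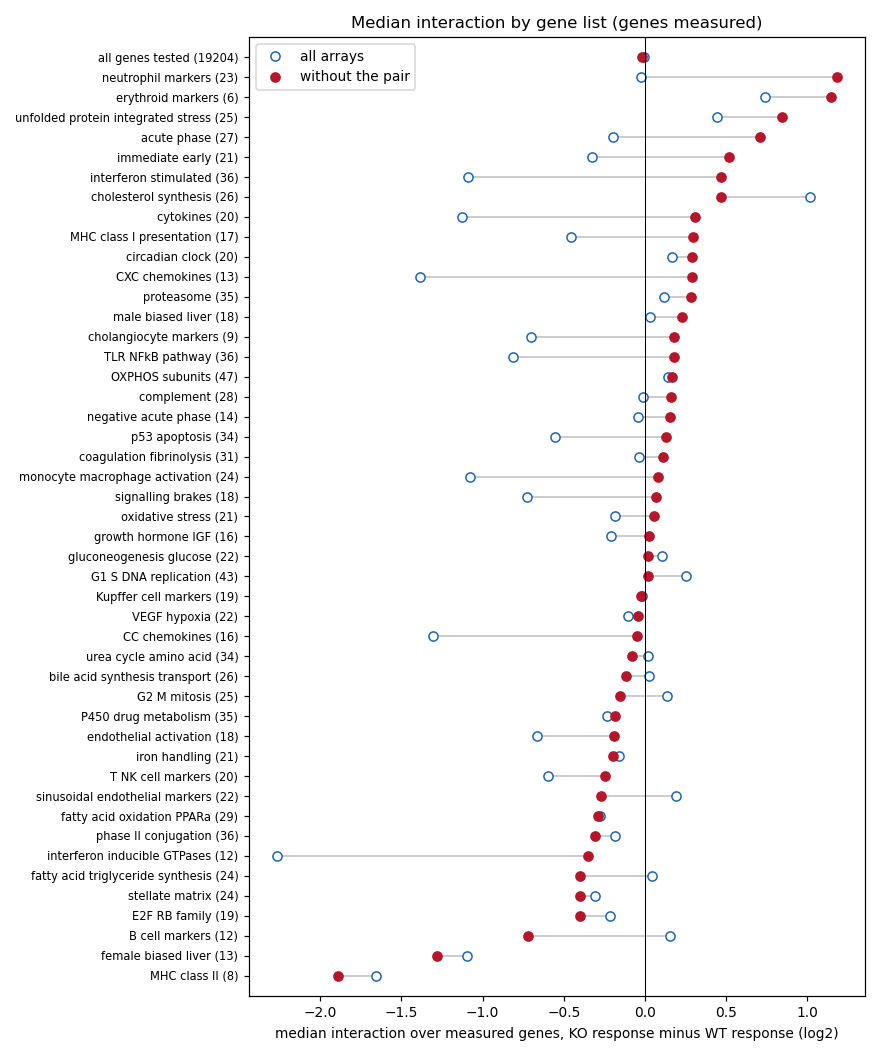
Median interaction (x axis, log2, KO response minus WT response) over the measured genes of each list, with the number measured in brackets. Open blue points are with all arrays, red points without the pair. Interferon-inducible GTPases move to -0.35 without the pair, from -2.27 with it, while MHC class II (-1.66 and -1.89) stays low in both.

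The 6 lists described next, among those with at least 6 measured genes, have the medians farthest from that of all genes without the pair. They, and 3 members of each with the smallest p, were chosen after their values were seen; Cd74, Hspa5 and Fgb are the brightest uncalled members of theirs. MHC class II genes, which present peptides to CD4 T cells, had a median of -1.66 with all arrays and -1.89 without the pair over 8 genes. None of the 8 was called, 6 had an unadjusted p under 0.05 in either fit (8.83% and 9.21% of all genes), and without the pair 0 of 8 were positive, against 48.9% of all genes. H2-Ab1 read 2.94 (replicate 1), 2.01, 2.34 and 2.76 in KO LPS livers and ran from 2.51 over 4.02 to 4.44 in KO saline livers. It read 3.40, 4.86, 2.72 and 2.60 in WT LPS livers and ran from 2.33 over 2.78 to 3.05 in WT saline livers. KO saline arrays lay above the WT saline arrays but for replicate 6. Its interaction was -1.98 and -2.16 without the pair (adjusted p = 0.243, limma). H2-DMb1 had -1.58 and -1.92 (adjusted p = 0.153), and Cd74, the invariant chain, -1.93 and -2.03 (adjusted p = 0.277). The list median was -1.28 within scan day 1 and -1.04 within scan day 2.

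Genes of the unfolded protein and integrated stress responses had a median of 0.44 with all arrays and 0.85 without the pair over 25 genes. Without the pair 23 of 25 were positive (48.9% of all genes), 11 had an unadjusted p under 0.05 (9.21% of all genes), and 1 (Sesn2) was called (0.151% of all genes). Ddit3, which encodes the stress factor CHOP, read -1.38 (replicate 1), 0.06, 1.55 and 1.59 in KO LPS livers and ran from -1.84 over -1.01 to 1.45 in KO saline livers, the highest being replicate 1. WT LPS livers read -1.86, -0.97, -1.24 and -1.63 and WT saline livers ran from -2.03 over -1.14 to -0.81. KO LPS replicates 2 to 4 lay above all WT arrays. Its interaction was 1.25 with all arrays and 2.28 without the pair (adjusted p = 0.0516, limma). Sdf2l1, an endoplasmic reticulum chaperone co-factor, had 1.67 and 2.43 (adjusted p = 0.0762), and Hspa5, the chaperone BiP, 0.06 and 0.84 (adjusted p = 0.587). The list median was 0.46 within scan day 1 and 0.94 within scan day 2.

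Neutrophil markers had a median of -0.02 with all arrays and 1.18 without the pair over 23 genes, of which 20 were positive without the pair (48.9% of all genes), 10 had an unadjusted p under 0.05 (9.21%), and 1 (Chi3l3) was called (0.151%). The mean level over the list was -2.80 (replicate 1), 1.03, 0.58 and 0.31 in KO LPS livers, against -0.44, -0.63, -0.36 and -1.02 in WT LPS livers. It was 0.71 in KO saline replicate 1, -4.00 to -3.67 in the other KO saline livers and -4.04 to -2.68 in WT saline livers. S100a8, a calcium-binding protein of neutrophils, read -0.54 (replicate 1), 4.82, 4.16 and 3.68 in KO LPS livers, against 2.60, 2.44, 3.08 and 1.96 in WT LPS livers. Its interaction was -0.02 with all arrays and 2.50 without the pair (adjusted p = 0.116, limma), and Mpo, the gene of myeloperoxidase, had 1.67 and 2.83 (adjusted p = 0.093). The list median was 1.15 within scan day 1 and 2.06 within scan day 2. The part of these cells in the calls of Chi3l3 was not tested.

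Acute phase genes had a median of -0.19 with all arrays and 0.71 without the pair over 27 genes, with 23 of 27 positive (48.9% of all genes), 6 at an unadjusted p under 0.05 (9.21% of all genes) and none called. Without the pair, lists of other roles leaned positive too: 31 of 35 proteasome subunits and 38 of 47 subunits of oxidative phosphorylation. Of these, 0 had an unadjusted p under 0.05. A high positive share was thus not particular to acute phase or stress genes. Orm2, an acute phase glycoprotein, had -0.06 and 0.98 (adjusted p = 0.313, limma), and the fibrinogen chain Fgb had -0.0056 and 0.34 (adjusted p = 0.844). The list median was -0.01 within scan day 1 and 0.82 within scan day 2, so the sign was not the same on both days. Erythroid markers had a median of 0.74 and 1.15 over 6 genes, all positive (49.7% and 48.9% of all genes), and Hba-a1, an α-globin gene, had 0.91 and 1.54 (adjusted p = 0.416). Genes with higher expression in female liver had a median of -1.1 and -1.28 over 13 genes. None was called, and 1 and 3 of the 13 were positive (49.7% and 48.9% of all genes). Abcd2, a peroxisomal transporter, had -1.89 with all arrays (adjusted p = 0.645, limma) and -3.10 without the pair (adjusted p = 0.244). Its spots were dim, well above background on 2 of 4 KO LPS, 4 of 6 KO saline, 3 of 4 WT LPS and 3 of 6 WT saline arrays. Cyp3a44 read 5.82 (replicate 1), 6.57, 6.23 and 6.91 in KO LPS livers, against 8.08, 7.55, 7.18 and 7.40 in WT LPS livers, with an interaction of -1.98 and -1.74 (adjusted p = 0.404).

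On the lists of E2F1's family, of the cell cycle and of p53 and apoptosis, 1 gene was called in each fit. It was Bbc3 with all arrays (0.125% of all genes were called) and Sesn2 without the pair (0.151% of all genes). A link of either gene to E2F1 was not tested. Over 43 genes of the G1 to S transition and DNA replication the median interaction was 0.25, and 0.02 without the pair, with none called. Over 25 genes of mitosis it was 0.14 and -0.15, and over 19 genes of the E2F and retinoblastoma family -0.22 and -0.40, again with none called. The interval lay within a 2-fold difference for only 6 and 8 of the 43, 1 and 2 of the 25, and 3 and 2 of the 19. Among 34 genes of the p53 and apoptosis list, Bbc3 was called with all arrays and Sesn2 without the pair; the medians were -0.55 and 0.13. Cholesterol synthesis genes had a median of 1.02 with all arrays over 26 genes. All were positive (49.7% of all genes), and 8 had an unadjusted p under 0.05 (8.83% of all genes). Without the pair the median was 0.47, with 22 of 26 positive (48.9% of all genes). Then 4 had an unadjusted p under 0.05 (9.21% of all genes). Within scan day 1 the median was 0.03, and within scan day 2 it was 0.78. Proteasome subunits had 0.12 and 0.29 over 35 genes, of which 24 and 19 had an interval within a 2-fold difference, and subunits of oxidative phosphorylation 0.14 and 0.16 over 47 genes, of which 32 and 27 had. Without the pair 31 of the 35 and 38 of the 47 were positive (48.9% of all genes). Over 35 cytochrome P450 genes the median was -0.23 and -0.18, over 29 genes of fatty acid oxidation -0.28 and -0.29, and over 26 genes of bile acid synthesis and transport 0.02 and -0.12, with none called. Kupffer cell markers had -0.02 and -0.02 over 19 genes, with 0 at an unadjusted p under 0.05 in either fit. However, 0 of the 19 had an interval within a 2-fold difference in either fit, so differences of that size stay possible.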

How the data were processed

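The deposited scanner files hold spot intensity on a linear scale from Agilent 1-colour arrays, read with Feature Extraction 10.7.1.1, background-subtracted and detrended per the file headers. The deposited table of the authors' processed values is on a log2 scale. How it was normalized is unstated, and it served as an alternative only. Here, log2 of the processed signal minus each array's 75th percentile was taken over 43379 spots that were not controls. Outlier spots (84 to 232 per array) were left out and spots of a probe averaged. Of 41174 probes, 28345 exceeded background clearly on 4 or more arrays, and the brightest of these stood for each of 19204 gene names. Array 75th percentiles ran from 282 (KO saline replicate 1) to 896, and the number of arrays limits the precision.

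limma 3.58.1 in R 4.3.3 fitted all 32 arrays by group (30 without the pair), and the interaction was a contrast with Benjamini-Hochberg adjustment over all genes. It was tested on simulated data. The comparison, members and gene lists were chosen with earlier results of these data known. Named were E2f1, a panel of 8 genes, the 12 genes with the smallest p in each direction of either fit, and called or brightest members of lists; clone names and the smallest-p members of the 6 lists were added after their values were seen. RefSeq matched 13530 names, 1907 under another symbol. Probe coordinates come from the array annotation in the files (mm9). Same-numbered samples did not deviate together more often than others, with r over 0.1 in 8 of 26 same-numbered and 47 of 122 other pairings. It ran from -0.688 (KO saline and KO LPS replicate 1) to 0.277, and from -0.421 to 0.486 in the others. Replicate numbers were therefore not taken to pair samples. Other normalizations, filters, blocks and left-out arrays were tried.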

Additional observations from a re-analysis of the deposited data

Results flagged for a closer look

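Of 228 sets of values (a gene or score in 1 group of 4 or 6 arrays), 38 (16.7%) held 1 array far from the rest by Dixon's criterion, which chance passes in about 1 of 20 sets. The pair accounted for 26 of the 38 and other arrays for 12.

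On the pair, the response score was 0.126 in KO LPS replicate 1 and 0.885 in KO saline replicate 1. In KO LPS replicate 1 and KO saline replicate 1, Tnf read -5.16 and 0.73, Il6 -3.93 and 0.98, Il1b -1.35 and 4.39, and Chi3l3 0.14 and 3.72. KO LPS replicate 1 alone stood apart in Gtlf3b (1.66), Tob1 (1.45), Zufsp (-1.15) and Dda1 (1.43). KO saline replicate 1 alone stood apart in Cxcl1 (7.10), Vegfa (4.12), Pbx2 (-0.19), Dll1 (-0.39), Apobec3 (-1.90), Sesn2 (4.01), Svopl (-2.24), Ppnr (-2.81), D0H4S114 (-6.05), Zfp39 (-4.07), C330011K17Rik (-3.28) and Rsl1 (0.97).

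Among WT LPS arrays, replicate 2 stood apart in Dll1 (1.51), Fam60a (-0.67) and Adamts13 (-6.36), and replicate 3 in Cyp7a1 (-3.29) and Chst12 (-4.37). Among WT saline arrays, replicate 2 stood apart in Id1 (0.91), replicate 4 in Pbx2 (1.14) and DV075475 (-1.21), replicate 5 in the response score (0.0848), and replicate 6 in Golga3 (-0.33), Dda1 (1.5) and NAP123224-1 (-3.85).

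The called interactions are responses that differed between KO and WT livers. With all arrays the positive ones were Tbc1d2 (2.33), Rab40c (1.34), Gtlf3b (1.87), Chst12 (2.64), Tob1 (2.38), Dedd2 (2.89), Bbc3 (2.34), C2cd2l (2.07), Hic1 (3.04), Ankzf1 (1.59) and 6430548M08Rik (2.68). The negative ones were Zfp296 (-2.62), Dll1 (-2.77), Apobec3 (-3.23), Ltbp1 (-2.82), Zufsp (-2.77), Tanc1 (-1.60), Fam60a (-1.78), Fnbp4 (-2.33), Adamts13 (-3.97), AK032904 (-4.02), AK086916 (-2.58), DV075475 (-1.63) and NAP123224-1 (-2.36).

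Without the pair the positive ones were Tbc1d2 (2.26), Rab40c (1.28), Gtlf3b (1.71), Chst12 (2.37), Dedd2 (2.63), Sesn2 (2.72), Svopl (3.62), Golga3 (1.60), Nfe2 (3.36), Ints6 (1.48), Sorl1 (2.47), Dda1 (1.13), Chi3l3 (3.74), 6430548M08Rik (2.85), Def6 (1.91), Rsl1 (1.62) and Ubn1 (1.43). The negative ones were Dll1 (-2.14), Ltbp1 (-2.85), Zufsp (-1.93), Ppnr (-2.21), Bcl9 (-2.03), D0H4S114 (-3.85), AK032904 (-3.85), AK035017 (-2.47), AK086916 (-2.60), C330011K17Rik (-4.85), DV075475 (-1.66) and NAP123224-1 (-2.32).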

How the results depend on the processing

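All 24 interactions called with all arrays and all 29 called without the pair kept their sign in every alternative that gave a value (at most 40 and 37), which is no independent support since they were chosen for their size on these arrays; within scan day 1 Apobec3 was -0.68. Their calls held in 13 to 38 and in 12 to 35 of the alternatives; the cause of the changes below was not tested. The count of 24 was 12 in the deposited value table, 7 with slide as a fixed block, 38 with scan day as a block, 0 within each of scan days 1 and 2 (fewer samples, some groups of 1 array), 612 with array weights and 5 at an adjusted p under 0.01; leaving out 1 array gave 8 to 29. The count of 29 was 51 after quantile normalization (35 higher, 16 lower), 47 after median centring (40 higher, 7 lower), 11 with no filter on dim probes, 19 with the mean over probes, 13 and 68 with slide as a fixed and as a random block, 0 within each scan day, 813 with array weights, 162 in a fit of only the arrays of these 4 groups and 1 at an adjusted p under 0.01; leaving out 1 more array gave 4 to 60. With all arrays median centring called 22 genes, 18 higher and 4 lower, and it moved the median of all genes by 0.27 (0.32 without the pair). Replicate numbers were not taken to pair the samples. The replicate block gave 21 genes with all arrays, 19 without the pair and 1 in the KO response.

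The KO response of 502 genes was 5600 without the pair, 280 after quantile normalization, 1 after normexp, 2 with no filter, 0 with slide as a fixed block (3911 at an unadjusted p under 0.05), 2578 and 3394 within scan days 1 and 2, 8147 with array weights, 0 in a fit of only these 4 groups (4375 unadjusted) and 1 at an adjusted p under 0.01; leaving out 1 array gave 0 (without KO LPS replicate 3, 2403 unadjusted) to 3885 (without KO LPS replicate 1). The WT response of 5471 was 2977 and 1793 within scan days and 3485 at an adjusted p under 0.01, and 4338 to 5876 with 1 array left out. KO against WT after LPS, 242 genes, was 116 with no filter, 62 with slide as a fixed block, 7 and 0 within scan days (1349 unadjusted on day 2), 1301 with array weights, 44 at an adjusted p under 0.01, and 77 (without WT LPS replicate 1) to 320 with 1 array left out. On saline, 64 genes, it was 39 with slide fixed, 11 and 7 within scan days, 234 with array weights, 25 at an adjusted p under 0.01, and 37 (without WT saline replicate 1) to 70. The 3485 genes with an interval within a 2-fold difference were 1885 after median centring, 11767 after normexp, 7261 in the value table and 299 and 859 within scan days, and 2635 to 3716 with 1 array left out; the 3423 without the pair were 1752, 11998, 7508, 299 and 859, and 2440 to 3445.

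None of the 8 panel genes was called with all arrays, and all changed sign somewhere. Without the pair Tnf was 0.25, Il6 1.27, Il1b 0.049, Cxcl1 1.68 and Vegfa 0.39. Within scan day 1 Saa1 was -0.69, Il6 0.57, Cxcl1 1.27, Vegfa 0.71, Cyp7a1 -2.40 and Alb -0.48; within day 2 Tnf was 1.65, Il6 1.84, Il1b 0.36, Cxcl1 1.95 and Vegfa 0.12. With array weights Il6 was 0.69, Cxcl1 1.67 and Vegfa 0.23. Vegfa was 0.17 after median centring and 0.019 with scan day as a block. Saa1 and Alb were -0.47 and -0.12 with slide fixed and -0.089 and -0.045 with slide random. With 1 array left out, values ran from -0.13 to 0.23 for Alb, -0.38 to 0.89 for Saa1, -1.26 to 0.27 for Il6, -1.58 to 0.46 for Cxcl1 and -0.31 to 0.15 for Vegfa. In the rest of the alternatives for named genes with all arrays, 1836 values kept sign and side of the threshold, 271 lost the call and 76 gained one. Spots near background limit Chst12, Hic1, Svopl, Sorl1, Ltbp1, Abcd2, AK032904 and Adamts13.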
